A study of Mus musculus with 7 samples.

Results

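The genes examined here encode the proteins of the cytoplasmic ribosome, measured in cortex RNA of APP/PS1 mice on 2 diets. They were chosen by symbol alone: Rpl or Rps followed by a digit, or Rplp0, Rplp1, Rplp2 or Rpsa, without the pseudogene symbols that carry -ps and without the Rps6k kinases. The rule found 86 genes of 23413 in the count tables, 52 of the large subunit (Rpl, Rplp) and 34 of the small subunit (Rps, Rpsa). One of them, Rps19bp1, encodes a protein that binds Rps19 and is not itself a ribosomal protein. Rps4y2 is a transcribed processed pseudogene in the GENCODE M21 annotation, where it is called Rps4l.

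RNA-seq counts came from 7 mice, 4 fed the control diet (CD; the sample labels say SD) and 3 fed the ketogenic diet (KD). All 7 mice carried the APPswe and PSEN1dE9 transgenes, which encode mutant human amyloid precursor protein and presenilin 1, so there was no library without them. In this line both transgenes are driven by the mouse prion protein promoter. The control diet supplied 74% of its energy as carbohydrate, 10% as protein and 16% as fat. The ketogenic diet supplied less than 0.5% as carbohydrate, 10% as protein and 90% as fat. Diets started at 6 months of age and lasted 7 months, so the cortex was taken at 13 months, and the mice were singly housed while on them. The study used both sexes, but the labels do not say which library came from which sex.

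The ribosome is built from ribosomal RNA and a large set of proteins, most of which are needed in 1 copy per particle, so cells make them in matched amounts. Their mRNAs are short, abundant and usually begin with a C followed by a run of C and T, the 5′ terminal oligopyrimidine (TOP) element, through which mTOR signaling controls how much of them is translated. In the brain, ribosomal protein mRNAs are found in cell bodies and also in neurites, where local translation serves synaptic plasticity. The comparison asks whether the mRNA level of these genes in cortex differed between the diets.

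RefSeq promoter entries (GRCm38.p6, the patched form of mm10) were found for 65 of the 86 genes. To show the start element that most of these mRNAs are known for, and genes that lack it in this table, windows with the 20 bases before the annotated start and the 10 bases from it onward are given for 7 genes, with the longest run of C and T in capitals. Rps6 (chr4:86857358-86857387, minus strand), Rplp2 (chr7:141447631-141447660, plus strand), Rpl15 (chr14:18270977-18271006, minus strand) and Rps27 (chr3:90213639-90213668, minus strand) each have C as the annotated start base, within a run of at least 9 such bases. Rpl22l1 (chr3:28805488-28805517, plus strand) has G as the start base, and a run of 9 begins at the next base. Rpl36a (chrX:134585634-134585663, plus strand) and its paralog Rpl36al (chr12:69184058-69184087, minus strand) also start at G and hold no run longer than 5.
Rps6: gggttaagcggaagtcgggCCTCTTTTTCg
Rplp2: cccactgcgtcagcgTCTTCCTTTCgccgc
Rpl15: ggattgtgggagaaagCCTTCTTCCTTTCC
Rps27: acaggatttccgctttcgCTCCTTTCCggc
Rpl22l1: cgtgcgtgcggcgcaagcccgTTCTCTTCC
Rpl36a: aggaagtgcaCCCaggcaccgcctataaac
Rpl36al: gttcgcaTTCCCgtcgctcaggttcagttc

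Of the 65 genes with an entry, 31 (47.7%) held a run of 8 or more consecutive C or T bases on the sense strand that overlapped the window from 15 bases before to 15 after the start, against 20% of 27025 genes with an entry. A start base C followed by at least 4 bases that were C or T was present in 13 genes (20%), against 3.01% of all genes. The motif CCGGAAG, searched on both strands of the 300 bases, was present in 26 genes (40.0%) against 9.93%. TATAA, between 40 and 15 bases before the start, was present in 5 genes (7.69%) against 4.22%. A run of C and T that overlaps the searched window can also lie beside the annotated start, so these shares describe the letters and not the use of a start site.

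The summed level of the 86 genes, in CPM (read counts scaled to the library total), was 10053, 9212, 7629 and 8031 in CD replicates 1 to 4 and 8401, 8021 and 8854 in KD replicates 1 to 3. CD replicate 1 had the highest and CD replicate 3 the lowest sum, and all 3 KD sums lay between them. The mean was 8731 ± 1108 CPM (SD, n = 4) for CD and 8425 ± 417 (SD, n = 3) for KD, a ratio of 0.965. The genes took 1.01% of all counts in CD replicate 1 (95% Wilson interval 1.0% to 1.01%) and 0.763% in CD replicate 3 (0.760% to 0.766%). Such intervals cover counting error only and are far narrower than the spread between mice of 1 diet.

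The picture was the same in each subunit. The large subunit summed to 4988 ± 585 CPM in CD and 4830 ± 264 in KD, and the small subunit to 3743 ± 525 and 3595 ± 166. The ratio of large to small subunit counts was 1.34 ± 0.0365 (SD, n = 4) in CD and 1.34 ± 0.0347 (SD, n = 3) in KD, and the means differed by less than either SD.

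**Figure D1:**
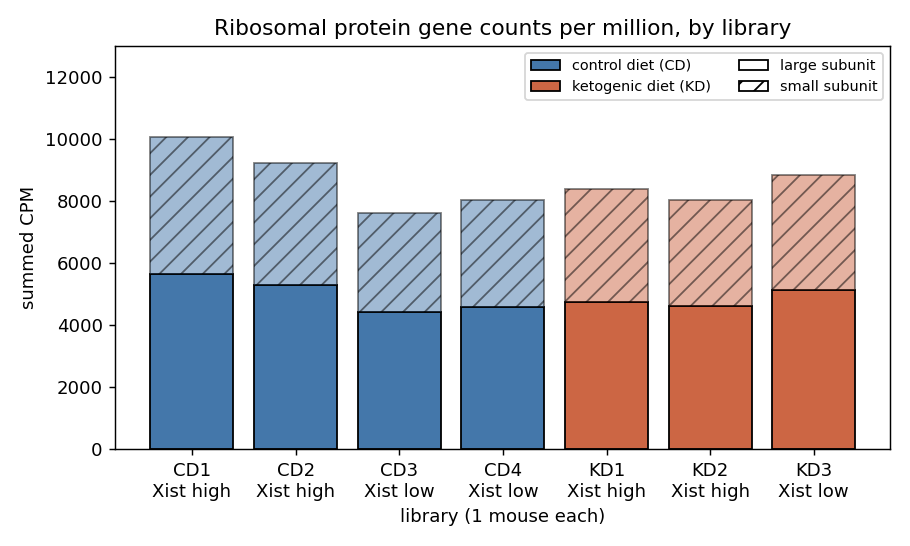
Summed CPM (y axis) of the ribosomal protein genes in each library (x axis, 1 mouse each), with large subunit genes in solid and small subunit genes in hatched bars, and the Xist level of the library marked. The KD sums, from 8021 to 8854 CPM, lie inside the CD range of 7629 to 10053 CPM.

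The same libraries were high or low for nearly all of the genes. Of the 79 genes that passed the filter on low counts, CD replicate 2 was above the gene's own mean over the 7 libraries, in log2 CPM, for 79 genes, and CD replicate 1 for 75. CD replicate 3 was above it for 0 genes and CD replicate 4 for 11. The KD libraries lay between, with 35, 15 and 50 genes above their mean in KD replicates 1, 2 and 3. Among all 15881 tested genes each library was above the gene mean for 49.1% to 51.7%. The median deviation of the ribosomal protein genes from their own means was 0.24 and 0.15 on the log2 scale in CD replicates 1 and 2, and -0.16 and -0.15 in CD replicates 3 and 4.

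CD replicate 1 held the highest CPM for 54 of the 79 genes (68.4%, against 12.6% of all tested genes) and CD replicate 3 the lowest for 44 (55.7%, against 11.6%). For 56 genes (70.9%) all 3 KD values lay inside the CD range, against 27.6% of all tested genes. As a description over the 7 libraries, the median correlation between 2 of these genes was 0.75, and 59 of the 79 genes correlated with the mean of the others at over 0.8. The points share library depth and composition, so the coefficients carry no test. Rpl7l1 was the 1 gene with a coefficient below 0, at -0.05. Rps4y2, at 0.29, and Rps16, at 0.31, came next.

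**Figure D2:**
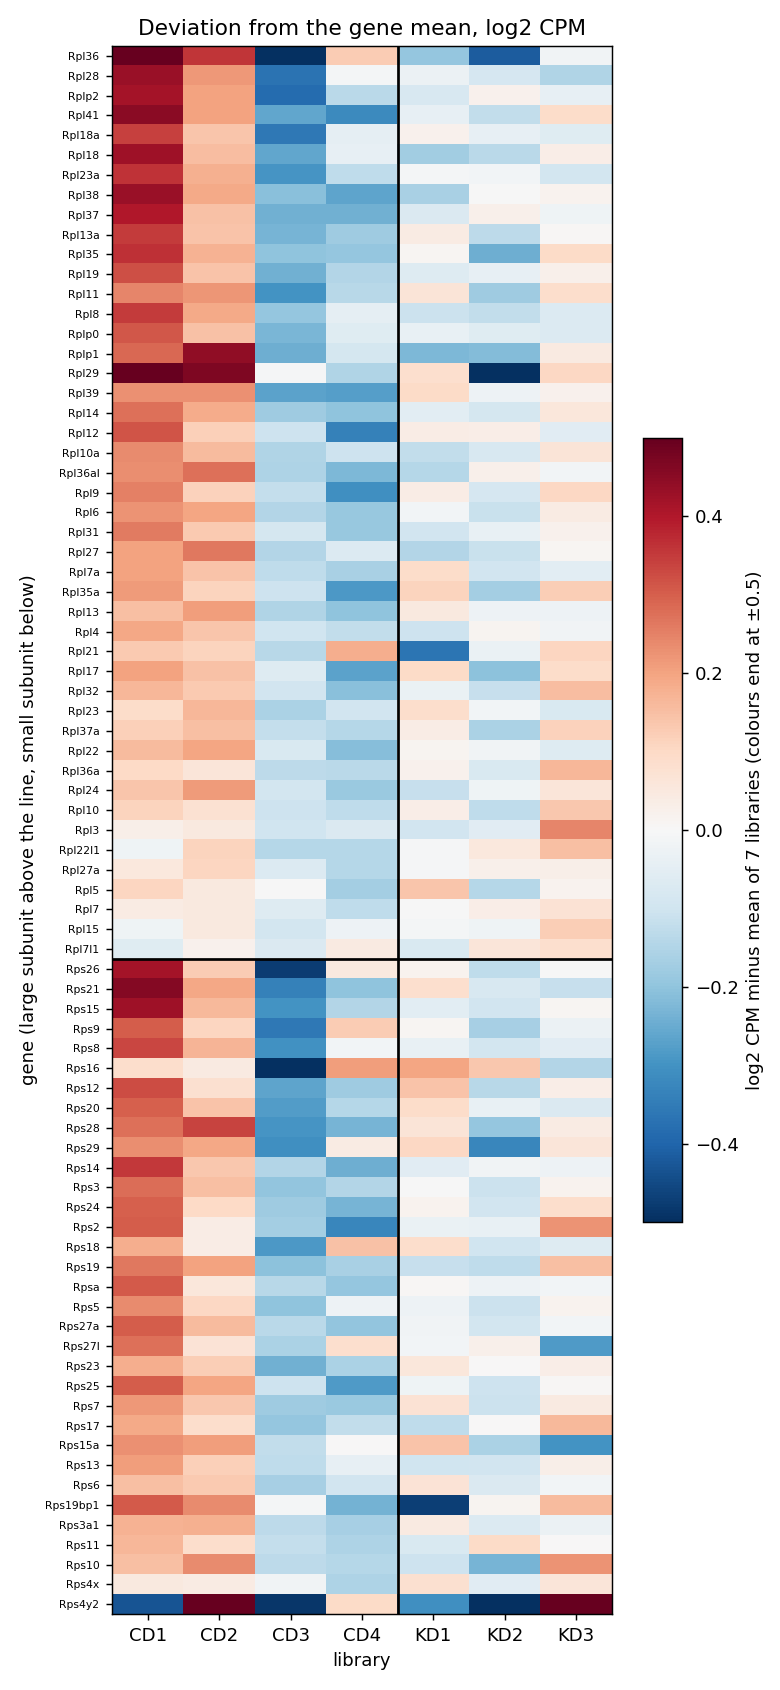
Difference of log2 CPM from the mean of 7 libraries (colour, ending at ±0.5) for the 79 tested genes (rows, large subunit above the line) in each library (columns). CD replicates 1 and 2 are red and CD replicates 3 and 4 mostly blue across both subunits, while the KD columns are pale.

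Some other groups of genes and other RNAs moved with the same libraries. The 92 nuclear genes for respiratory chain subunits summed to 12156, 11884, 9927 and 11126 CPM in CD replicates 1 to 4 and to 10720, 10641 and 10036 in the KD replicates. CD replicates 1 and 2 were again highest and CD replicate 3 lowest, whereas KD replicate 3 stood low here and not for the ribosomal proteins. Among 792 other mRNAs under 1000 bases, the median deviation was 0.13, 0.08, -0.10 and -0.03 in CD replicates 1 to 4, so shorter mRNAs as a class showed a smaller version of the CD pattern. For 2765 mRNAs over 5000 bases it was -0.04, -0.05, 0.03 and 0.02. Rpph1, the RNA of RNase P, was at 682 and 569 CPM in CD replicates 1 and 2, and at 259 to 393 CPM in the other 5 libraries. Rn45s, the ribosomal RNA precursor, did not share the pattern. It was at 535, 503, 491 and 432 CPM in CD replicates 1 to 4 and at 622, 552 and 433 in the KD replicates. The paper names a total RNA library kit. How much ribosomal RNA was left in each library is not given, so these counts cannot be read as the precursor level in the tissue.

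Markers of cell types and neighbouring tissue also differed between libraries. All 9 neuron, 7 astrocyte and 8 oligodendrocyte markers were present above 3 counts in at least 1 library. So were all 7 choroid plexus, 7 meningeal fibroblast and 7 olfactory bulb markers, so this low bar does not tell cortex from neighbouring tissue. Of the 5 blood markers in the tables, 4 were at 0 in every library. No absence of blood can be read from this, since Rpl26, a core ribosomal protein gene, was also at 0 in every library. The 7 choroid plexus markers summed to 456 CPM in CD replicate 1 and to 9.16 to 69.2 CPM in the others. The 8 oligodendrocyte markers summed to 1078 CPM in CD replicate 3 and 1126 in KD replicate 3, and to 2092 to 4189 CPM elsewhere. The 7 meningeal fibroblast markers ranged from 44.5 to 316 CPM and the 7 olfactory bulb markers from 138 to 407, both highest in CD replicate 4. The part of these differences in the ribosomal protein levels was not tested, and in bulk tissue fewer cells of a type and less RNA per cell cannot be told apart.

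Xist, the RNA of the inactive X chromosome, split the libraries. It was at 250 and 242 CPM in CD replicates 1 and 2 and at 526 and 321 in KD replicates 1 and 2. In CD replicates 3 and 4 and KD replicate 3 it was at 0.314 to 3.08 CPM. The Y-linked genes Ddx3y, Eif2s3y, Kdm5d and Uty summed to 624 to 672 CPM in the low-Xist libraries and to 0.235 to 0.602 in the others. Within the 4 libraries with high Xist, the summed ribosomal protein level was 9632 CPM for 2 CD and 8211 for 2 KD libraries, a ratio of 0.852. Within the 3 with low Xist it was 7830 CPM for 2 CD libraries and 8854 for the 1 KD library, a ratio of 1.13. Both KD values were below both CD values in the first set for 68 of the 79 genes (21.9% of all tested genes), and the KD value was above both CD values in the second for 64 (33.5% of all tested genes). The direction of the diet difference was therefore opposite in the 2 sets, which were formed after the data were seen, and with 1 KD library in the second set this difference was not tested.

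In the comparison of KD with CD over all 7 libraries, by edgeR's quasi-likelihood test, no ribosomal protein gene passed any threshold. At a raw p under 0.05 there were 0 of 79 genes, against 3.19% of all 15881 tested genes (DESeq2 and limma-voom also gave 0), and the smallest Benjamini-Hochberg adjusted p was 0.979. At an adjusted p under 0.05 the background was 0.0%. No gene had CD and KD values that failed to overlap, where 4.2% of all tested genes did. The 95% interval of the fold change lay within a 1.5-fold change in either direction for 74 of the 79 genes (93.7%), against 56.8% of all tested genes. This was not particular to them. The share was 89.9% for the respiratory chain genes, 88.2% for mitochondrial ribosomal proteins and 92.0% for the translation lists described below. For the other mRNAs under 1000 bases it was 52.1%. The 5 ribosomal protein genes whose interval reached beyond a 1.5-fold change were Rpl29, Rpl36, Rplp1, Rps19bp1 and Rps4y2.

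The log2 fold change was below 0 for 59 of the 79 genes (74.7%), where 51.0% of all tested genes were below 0, and its median was -0.06 against -0.00 for all tested genes. This tilt rested on CD replicate 1: without it 24 of 79 genes were below 0 and the median was 0.03. Without CD replicate 2, 42 were below 0. The genes share the libraries and are not replicates of the diet, so the count carries no test.

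**Figure D3:**
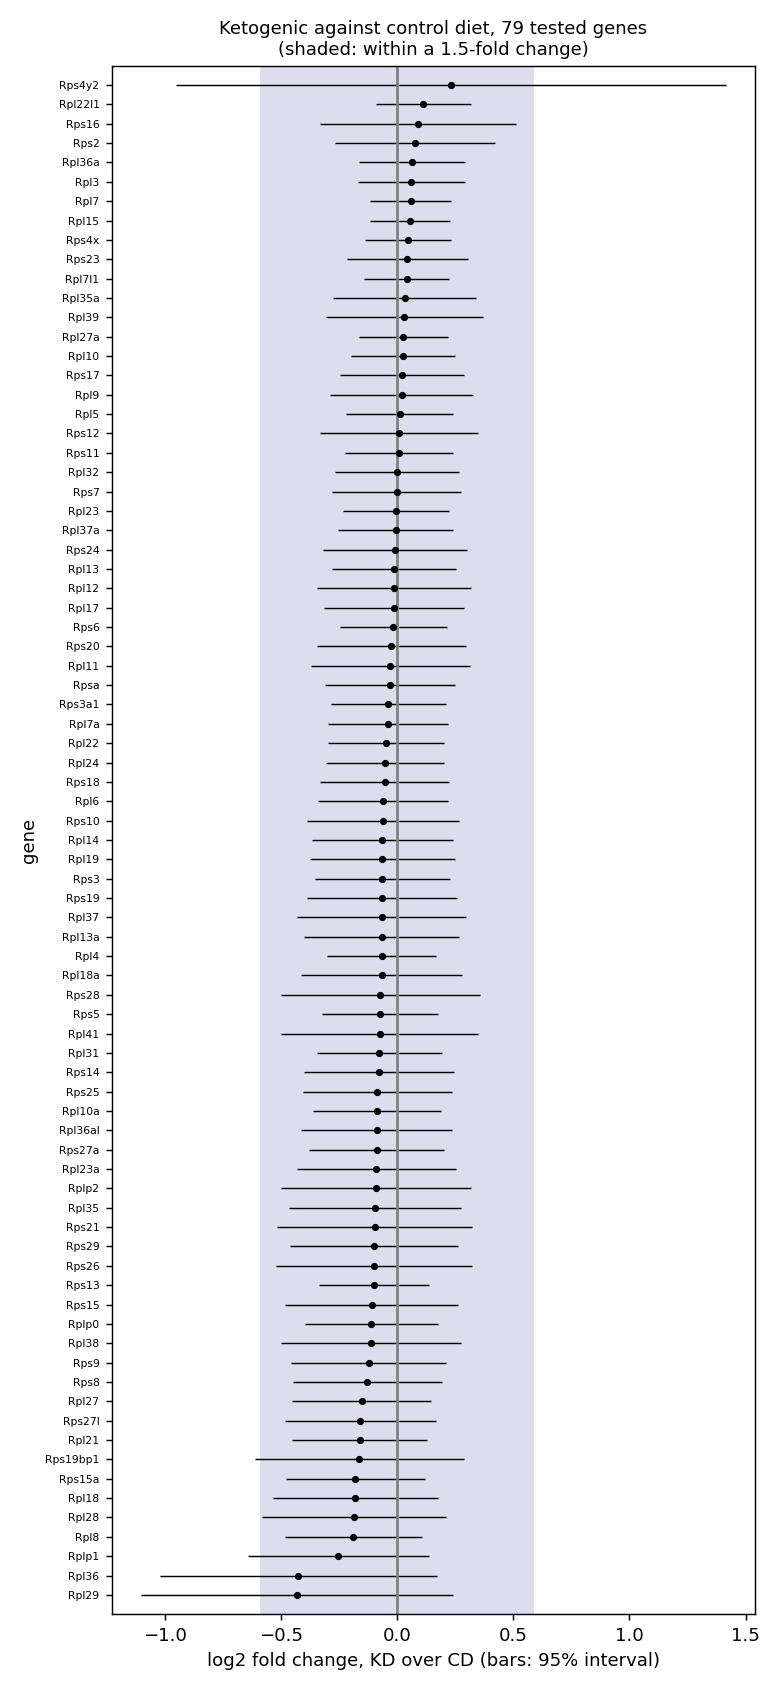
Log2 fold change of KD over CD (x axis) for each of the 79 tested ribosomal protein genes (y axis), with points for the estimate and bars for the 95% interval from edgeR's quasi-likelihood fit, and shading for a change of less than 1.5-fold. Every interval includes 0, and the intervals of 5 genes extend beyond the shaded band.

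The genes with the smallest raw p on the lower side were Rpl36, Rplp1, Rpl29, Rpl8 and Rps15a. Rpl36, a large subunit protein, was at 27.3, 21.3, 11.7 and 19.3 CPM in CD and at 14.8, 12.5 and 17.1 in KD. The lowest value of all was a CD library, and the groups overlapped. Its log2 fold change was -0.43 ± 0.26 (SE). Rpl29, also of the large subunit, was at 17.6, 16.6, 12.2 and 11.5 CPM in CD and 12.9, 6.0 and 13.4 in KD. KD replicate 2 stood lowest and the other KD libraries lay inside the CD range, with a log2 fold change of -0.43 ± 0.29 (SE).

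Rpl8, a core protein of the large subunit, was at 226, 198, 155 and 179 CPM in CD and at 164, 161 and 172 in KD. The KD values were close together and inside the CD range, and the log2 fold change was -0.19 ± 0.13 (SE). Rps15a, of the small subunit, was at 209, 203, 165 and 187 CPM in CD and at 196, 158 and 148 in KD. KD replicates 2 and 3 were below all CD values and KD replicate 1 was not, giving -0.18 ± 0.13 (SE). The pseudogene row Rps15a-ps6, which is not among the 86 genes, was at 0.228 to 3.72 CPM in CD and at 0.556, 3.82 and 11.5 CPM in KD, highest in the library where Rps15a was lowest; whether reads were divided between the 2 was not tested. Rpl21, a large subunit protein, was lowest in KD replicate 1, at 110 CPM, against 130 to 169 in the other libraries.

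On the higher side were Rpl22l1, Rpl7, Rpl15, Rpl36a and Rpl3. Rpl22l1, a paralog of Rpl22, was at 72.9, 78.3, 67.2 and 69.7 CPM in CD and 73.2, 75.5 and 83.7 in KD. KD replicate 3 was the highest library, and the other KD values lay inside the CD range, with a log2 fold change of 0.11 ± 0.09 (SE). Rpl7 and Rpl15 were among the 3 steadiest genes, with Rpl7l1. Rpl7 was at 274 ± 10.5 CPM (SD, n = 4) in CD and 284 ± 11.4 (SD, n = 3) in KD. Rpl15 was at 115 ± 4.35 and 119 ± 8.69 CPM. Rpl3, which lies near the peptidyl transferase centre, was at 240 and 245 CPM in KD replicates 1 and 2 and at 312 in KD replicate 3, above every CD value of 242 to 264. Without KD replicate 3 its log2 fold change turned from 0.06 to -0.06.

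Among groups set by role, the P stalk, which recruits elongation factors to the ribosome, had all 3 genes below 0 in log2 fold change. None passed the test, and 74.7% of all 79 genes were below 0. Rplp1 was at 87.4, 95.5, 60.5 and 70.1 CPM in CD and 60.8, 60.7 and 75.1 in KD, with the KD values inside the CD range and a log2 fold change of -0.25 ± 0.17 (SE). Rplp0 was at 89.3 ± 13.8 CPM (SD, n = 4) in CD and 82.1 ± 1.23 (SD, n = 3) in KD. Rplp2 was at 30.4 ± 7.07 and 28.4 ± 0.918 CPM.

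The 5S particle genes Rpl5 and Rpl11, whose proteins carry 5S rRNA into the large subunit and can bind Mdm2, had close means in the 2 groups. Rpl5 was at 52.1 ± 3.25 CPM in CD and 52.3 ± 5.35 in KD, and Rpl11 at 55.1 ± 9.38 and 53.8 ± 5.97. Rps6, the small subunit protein phosphorylated by S6 kinases downstream of mTOR, was at 71.7, 69.4, 57.7 and 63 CPM in CD and 67.3, 60.4 and 65.1 in KD. Its 95% interval ran from -0.25 to 0.21 on the log2 scale. Of the 7 tested genes around the peptide tunnel exit, 6 were below 0 with a median of -0.06. Diamond-Blackfan anaemia is an inherited failure of red cell production. Of the 17 tested genes mutated in it, 13 (76.5%) were below 0 with a median of -0.07. Both groups are part of the 79 genes, of which 74.7% were below 0. No gene of either group had a raw p under 0.05.

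The genes differed widely among themselves in counts per length. Per kb of the principal mRNA, the mean over 7 libraries ran from 4.18 to 468 CPM per kb among the 79 tested genes, with a median of 120. The 10th and 90th percentiles differed 9.42-fold. The 5 highest were Rps14 at 468 CPM per kb, Rps21 at 371, Rpl9 at 361, Rpl4 at 317 and Rps15a at 282. Rps15a and Rpl38, both at 282, cannot be put in order. The 5 lowest were Rps4y2 at 4.18, Rps19bp1 at 12.3, Rps16 at 13.2, Rpl29 at 18.2 and Rpl7l1 at 20.3 CPM per kb. Rps16 encodes a core small subunit protein, and its level per kb was nonetheless far below the median.

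None of these highest and lowest genes passed the test of diet. Rps14, a small subunit protein, was at 287 ± 51.3 CPM (SD, n = 4) in CD and 270 ± 6.24 (SD, n = 3) in KD. Rps21 was at 151 ± 36.8 and 140 ± 9.70 CPM, and Rpl9 at 265 ± 40.7 and 268 ± 21.6. Rpl4, whose protein lines the exit tunnel, was at 499 ± 48.5 and 473 ± 20.9 CPM. Rps16 was at 14.3 ± 3.08 and 15 ± 1.64 CPM and Rps19bp1 at 10.8 ± 1.61 and 9.63 ± 2.17. Rps4y2 had the largest spread, at 2.6, 5.7, 2.5 and 3.9 CPM in CD and 2.8, 1.9 and 8.3 in KD, and without KD replicate 3 its log2 fold change turned from 0.23 to -0.63.

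The counts were too low to test for 7 of the 86 genes, namely Rpl10l, Rpl26, Rpl30, Rpl34, Rpl39l, Rpl3l and Rps27. Rpl10l and Rpl39l are known for expression in testis and Rpl3l in striated muscle. Rpl26, Rpl30, Rpl34 and Rps27, by contrast, encode proteins that every ribosome carries. Rpl26 was listed at 0 in all 7 libraries, Rpl30 at 0 to 6 counts, Rpl34 at 0 to 4 and Rps27 at 2 to 8. A count of 0 allows up to 3 counts, or 0.0819 to 0.135 CPM in these libraries. No level or fold change can be read for these 4 genes from the tables.

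Ribosomal protein mRNAs have many copies in the genome, so shared sequence was measured for each gene. A window of 50 bases counted as shared where the same bases occurred in a transcript of another GENCODE gene. The median gene had 48.5% of its mRNA windows and 88.6% of its coding windows shared, and 82 of the 86 shared a window with at least 1 pseudogene. Among 14785 tested protein-coding genes the median was 0%, and 24.8% shared any window. Rpl26 had 71.3% of its mRNA windows shared, Rpl30 47.8%, Rpl34 37.9% and Rps27 98.6%. Rpl9 had 93.3% shared and held 6301 to 11038 counts. The part of shared sequence in the low counts was not tested. The paper names HTSeq, run within STAR, for the counting. How that step treated reads that fit several genes is not given in the sources used here. The levels of these genes are uncertain to that extent.

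**Figure D4:**
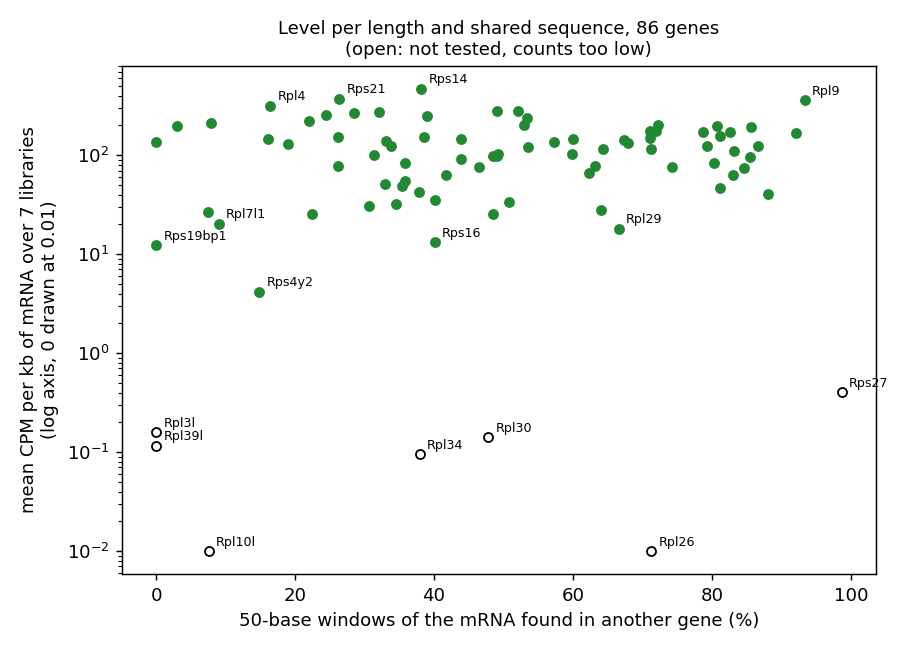
Mean CPM per kb of mRNA over 7 libraries (y axis, log scale, with 0 drawn at 0.01) against the percentage of 50-base mRNA windows found in another gene (x axis) for the 86 genes, with open circles for the 7 genes not tested. Rpl26, Rpl30, Rpl34 and Rps27, with shared shares from 37.9% to 98.6%, lie below all tested genes.

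Rps27 (chr3:90212522-90213651, minus strand, mm10) has an identical copy and a diverged paralog. Its coding sequence of 255 bases is identical to that of Rps27rt, a copy on chromosome 9, with 0 differing bases. Its paralog Rps27l (chr9:66946086-66949516, plus strand), a known target of p53, differs from it at 61 of 255 bases (76.1% identity), with no identical stretch longer than 11 bases, and was counted at 13.4 ± 1.66 CPM (SD, n = 4) in CD and 11.9 ± 1.14 (SD, n = 3) in KD. The 2 coding sequences are shown from GENCODE M21, with the bases that differ in capitals.
Rps27: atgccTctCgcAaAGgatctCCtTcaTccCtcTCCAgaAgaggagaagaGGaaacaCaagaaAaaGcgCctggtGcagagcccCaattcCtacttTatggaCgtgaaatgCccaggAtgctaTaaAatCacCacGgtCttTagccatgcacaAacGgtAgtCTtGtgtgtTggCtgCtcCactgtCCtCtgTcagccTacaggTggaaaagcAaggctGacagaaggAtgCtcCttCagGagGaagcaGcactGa
Rps27l: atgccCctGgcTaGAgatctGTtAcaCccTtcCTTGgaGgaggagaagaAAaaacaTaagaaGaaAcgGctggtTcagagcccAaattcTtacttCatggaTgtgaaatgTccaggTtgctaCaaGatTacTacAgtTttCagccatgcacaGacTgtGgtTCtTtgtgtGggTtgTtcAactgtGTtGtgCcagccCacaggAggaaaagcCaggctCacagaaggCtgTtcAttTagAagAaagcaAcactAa

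Rpl36a and its near copy Rpl36al encode the same kind of large subunit protein. Rpl36a (chrX:134585654-134588062, plus strand) and Rpl36al (chr12:69182731-69184083, minus strand) differ at 39 of 321 coding bases (87.9% identity), and no identical stretch exceeds 24 bases. Bases 1 to 150 of both coding sequences, with 23 differing bases in capitals, show where they differ.
Rpl36a: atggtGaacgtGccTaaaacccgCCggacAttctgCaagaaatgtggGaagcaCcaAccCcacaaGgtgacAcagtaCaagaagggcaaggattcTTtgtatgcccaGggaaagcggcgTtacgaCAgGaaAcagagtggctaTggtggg
Rpl36al: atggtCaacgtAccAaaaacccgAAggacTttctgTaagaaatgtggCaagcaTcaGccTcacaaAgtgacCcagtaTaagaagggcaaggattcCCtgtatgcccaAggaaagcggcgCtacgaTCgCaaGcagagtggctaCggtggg

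The share of a paralog against its partner can differ even where neither gene does, so 4 count ratios were compared by an exact two-sided permutation test over the 7 libraries, which cannot give a p below 0.0571. Rpl36al to Rpl36a was 0.925, 0.981, 0.830 and 0.793 in CD and 0.755, 0.905 and 0.747 in KD. KD replicates 1 and 3 were below all CD ratios and KD replicate 2 was not (log2 difference -0.14, exact p = 0.286, adjusted p = 0.381 over 4 ratios). Rpl22l1 to Rpl22 was 0.540, 0.576, 0.585 and 0.641 in CD and 0.603, 0.642 and 0.711 in KD. The groups overlapped, although the lowest 3 ratios were all CD (log2 difference 0.15, exact p = 0.114, adjusted p = 0.343).

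Rpl7l1 to Rpl7 was at 0.177 to 0.213 in CD and 0.180 to 0.194 in KD (log2 difference -0.02, exact p = 0.914, adjusted p = 0.914). Rps27l to Rps27 rests on the 2 to 8 counts of Rps27 and gave a log2 difference of -0.71 (exact p = 0.171, adjusted p = 0.343), which those counts leave without meaning for the level of either gene.

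**Figure D5:**
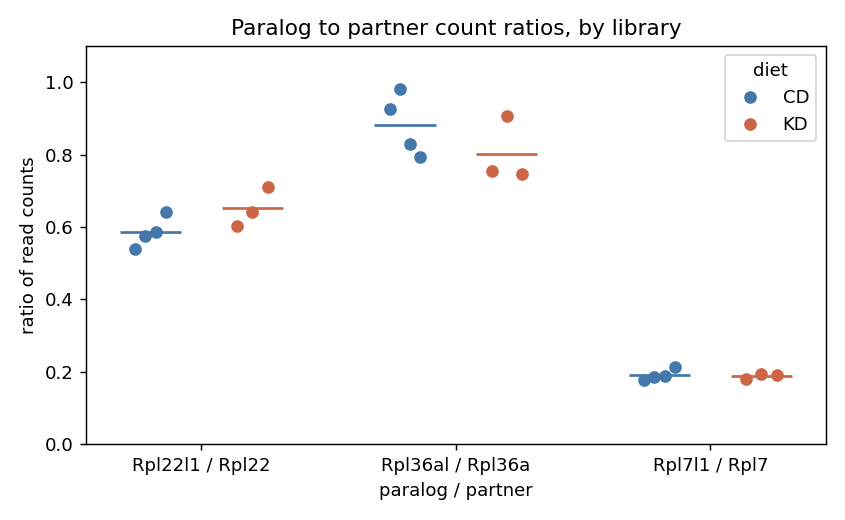
Ratio of read counts of a paralog to its partner (y axis) in each library (points, with lines for the group mean) for 3 pairs (x axis) and 2 diets (colour). The CD and KD points of each pair overlap, from 0.540 to 0.711 for Rpl22l1 to Rpl22.

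Gnb2l1, the older symbol of Rack1, a scaffold on the small subunit that lies outside the symbol rule, was at 176 ± 16.3 CPM (SD, n = 4) in CD and 166 ± 2.38 (SD, n = 3) in KD. Its log2 fold change was -0.07 ± 0.09 (SE), and it did not reach a raw p under 0.05.

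Genes that work with the ribosome showed no common direction. Of 162 tested genes in lists of initiation factors, elongation and termination factors, other TOP mRNAs, assembly factors, mTOR signaling, quality control and ribosome components outside the symbol rule, 80 were above 0 and 82 below, and the median log2 fold change was -0.00. At a raw p under 0.05 there were 3, all higher in KD, against 3.19% of all tested genes. These were Mycn, Utp20 and Gar1. None passed the adjusted threshold. Of the 162 genes, 4 had all KD values above all CD values, against 1.64% of all tested genes, and 8 had all KD values below all CD values, against 2.56%.

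Mycn, a transcription factor of the Myc family that drives ribosome production, was at 4.13, 5.38, 4.21 and 4.81 CPM in CD and 6.67, 6.49 and 8.13 in KD. All KD values were above all CD values, with a log2 fold change of 0.62 ± 0.17 (SE). Gar1, a protein of the snoRNA particles that guide pseudouridylation of rRNA, was at 2.79 to 3.59 CPM in CD and 4.04 to 4.38 in KD, without overlap (log2 fold change 0.48 ± 0.19). Utp20, of the small subunit processome, was at 41.5 to 50 CPM in CD and 52.2 to 56.9 in KD, also without overlap (0.24 ± 0.08). Raw p of at most 0.01 was met by Mycn alone in these lists, against 0.321% of all tested genes.

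In the list of initiation factors, the 2 smallest raw p were those of Eif1b (92.7 ± 7.58 CPM in CD and 81.8 ± 2.23 in KD), which selects start codons, and Eif6 (29.9 ± 4.35 and 25.4 ± 2.51), which keeps free large subunits apart from small ones. Eif1b was among the 8 genes of these lists without overlap on the lower side, at 79.5 to 83.9 CPM in KD and 86.7 to 104 in CD. Abce1, which splits ribosomes after termination, was at 171 ± 9.18 and 185 ± 3.70 CPM. Eef2, the translocation factor and itself a TOP mRNA, was at 730 ± 106 and 631 ± 39.9 CPM. Deptor, an inhibitor of mTOR, was at 15.5 to 22.3 CPM in CD and 7.90 to 17.0 in KD. At a raw p under 0.05 none of these 5 was called.

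In the quality control list, Ascc3, which helps to split collided ribosomes, was at 73.6 ± 8.22 and 84.4 ± 3.69 CPM and Pelo, which rescues stalled ones, at 10.3 ± 0.637 and 8.70 ± 0.835. Eef1e1, a component of the tRNA synthetase complex, was at 29.0 ± 1.98 and 32.7 ± 4.57 CPM, and the TOP mRNA of the histone chaperone Nap1l1 at 206 ± 19.4 and 222 ± 21.6.

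Mitochondrial ribosomal proteins, which build a separate ribosome inside mitochondria, had 53 of 76 genes below 0, against 51.0% of all tested genes. Their median was -0.04, and 0 genes had a raw p under 0.05, against 3.19%. The smallest raw p were for Mrpl54 (10.3 ± 0.750 CPM in CD and 8.41 ± 0.490 in KD) and Mrps25 (32.4 ± 2.62 and 38.1 ± 7.35), in opposite directions. All KD values of Mrpl54 (8.04 to 8.96 CPM) were below all CD values (9.34 to 11.0). Of the 76 genes, 3 were without overlap on the lower side, against 2.56% of all tested genes, and 1 on the higher side, against 1.64%. Of 89 tested nuclear respiratory chain genes 76 were below 0, with a median of -0.08. The complex I subunit Ndufv1, at 184 ± 13.5 and 155 ± 11.7 CPM, was the 1 gene of that list with a raw p under 0.05 (log2 fold change -0.24 ± 0.10), and Ndufs7, also of complex I, was at 32.3 ± 4.53 and 26.3 ± 1.79 CPM.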

How the data were processed

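RNA-seq libraries from the cortex of 7 APP/PS1 mice, made with the TruSeq Stranded Total RNA Gold kit, were analysed. The authors aligned reads to mm10 with STAR and counted them per gene with HTSeq, run within STAR. They deposited raw read counts per gene symbol, 1 table per mouse, neither normalized nor pooled. Versions, annotation, strand setting and the handling of reads that fit several genes are not given in the sources used here. Library totals were 22272883 to 36614954 counts.

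Diet and replicate came from the labels. The genes and lists were chosen with earlier results of these data known. KD was compared with CD by edgeR 4.0.16 in R 4.3.3 (filterByExpr, TMM, estimateDisp, glmQLFit with robust=TRUE, glmQLFTest), with Benjamini-Hochberg adjustment over 15881 genes and no covariate. CPM used library totals. The fit was tested on simulated counts. GENCODE M21 (mm10) held a match for 23048 symbols, 1271 of these by an older symbol, and for all 86 genes. Paralog ratios used log2 of counts plus 0.5. Exact tests used scipy.

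The named genes were those with a raw p under 0.05, the 5 of smallest raw p in each direction, the 5 highest and 5 lowest per length, the 3 most and 3 least variable, the paralogs, P stalk, 5S genes and Rps6, genes with at most 3 counts throughout and, in each other list, those at or under a raw p of 0.01 and the 2 smallest. Rpl21, Rpl28, Rpl38, Rps9, the other low-count genes and the pseudogene row were named after their values were seen. Alternatives were RLE, library size alone, TMM without these genes, 2 other filters, DESeq2 1.42.0, limma-voom (limma 3.58.1), edgeR's likelihood-ratio test, a replicate block, added pseudogene rows and each library left out. Xist as a covariate and the split by Xist were added after seeing the data. One result of a named list is not reported here, for a reason unrelated to its value.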

Additional observations from a re-analysis of the deposited data

Results flagged for a closer look

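The summed level of the ribosomal protein genes moved in opposite directions with diet in libraries that differ in Xist. KD over CD was 0.852 in the 4 libraries with Xist above 100 CPM (2 CD, 2 KD), and 1.13 in the 3 libraries with Xist below 10 CPM (2 CD, 1 KD). Every KD library was below both CD libraries in the first set and above both in the second. The sets were formed after the data were seen, the labels give no sex, and the difference between the sets was not tested. The choroid plexus markers, at 456 CPM in CD replicate 1, the other short mRNAs and the respiratory chain genes also differed between these libraries, and their part was not tested.

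Of 71 values examined for a CD library far from the other 3 (the sums, named genes and ratios of the report and the marker lists), 3 were such cases, and chance gives about 1 in 20. The choroid plexus markers summed to 456 CPM in CD replicate 1 and to 9.16, 31.8 and 69.2 in the other CD libraries, a gap of 0.866 of the range. The meningeal fibroblast markers summed to 316 CPM in CD replicate 4 and to 52.1, 59.3 and 90.0 in the others, a gap of 0.856. The pseudogene row Rps15a-ps6 was at 3.72 CPM in CD replicate 3 and at 0.228, 0.334 and 0.519 in the others, a gap of 0.917.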

How the results depend on the processing

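No setting gave a ribosomal protein gene an adjusted p under 0.05. Leaving out 1 library at a time gave 0 to 5 of them at a raw p under 0.05. The 5 appeared without CD replicate 3, where 7.38% of all tested genes passed. They were Rpl28, Rpl36, Rpl8, Rplp1 and Rps9, all lower in KD. Without KD replicate 1 there was 1, Rps15a, where 4.01% of all tested genes passed. The number with a log2 fold change below 0 ran from 24, without CD replicate 1, to 70, the median from -0.12 to 0.03 and the log2 ratio of the summed level from -0.11 to 0.02. That ratio was -0.05 over all libraries, -0.23 within the libraries with Xist above 100 CPM and 0.18 within those with Xist below 10 CPM. Without 1 library, 1.63% to 7.38% of all tested genes had a raw p under 0.05. Counts for the translation lists were then 1 to 9 (9 without CD replicate 3, 1 without KD replicate 2). They were 0 to 2 for the mitochondrial ribosomal genes and 0 to 13 for the respiratory chain genes (13 without CD replicate 3). With Xist as a covariate these 3 counts were 6 of 162, 1 of 76 and 4 of 89, where 6.39% of all tested genes passed. With library size alone the last 2 were 1 and 2 (3.24% of all tested genes). The respiratory chain count was 3 with a minimum of 1 count (3.02% of all tested genes) and 0 with the likelihood-ratio test (3.14%). The cause of these shifts was not tested.

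Replicate numbers 1 to 3 are shared by the diets, but the labels do not call them pairs, and they were not taken as such. Deviations of same-numbered libraries correlated at 0.23, 0.18 and 0.09. These values cannot decide the question, since libraries of different number were not compared. Same-numbered libraries also fell in the same Xist set, high for numbers 1 and 2 and low for 3. A replicate block therefore also compares the diets within these sets. With a replicate block over those 6 libraries, 0 ribosomal protein genes had a raw p under 0.05 and 69 were below 0. In that fit 1 mitochondrial ribosomal gene passed, against 5.89% of all tested genes. Rpl9 turned to -0.064 and Rpl5 to -0.046 under the block, and Rps4y2 to -0.027 with limma-voom.

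Without 1 library the log2 fold change ran from -0.12 to 0.052 for Rpl11, from -0.057 to 0.12 for Rpl3, from -0.0054 to 0.12 for Rpl36a, from -0.059 to 0.080 for Rpl5, from -0.069 to 0.11 for Rpl9, from -0.21 to 0.052 for Rplp2, from -0.16 to 0.042 for Rps14, from -0.046 to 0.18 for Rps16, from -0.21 to 0.063 for Rps21, from -0.63 to 0.59 for Rps4y2 and from -0.071 to 0.032 for Rps6. The log2 ratio of Rpl7l1 to Rpl7 ran from -0.056 to 0.033. The 3 and 4 mice per diet limit what can be seen: the median standard error of the 79 genes was 0.13 on the log2 scale.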
